A study of Mus musculus with 14 samples.

Results

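The comparison described here is that of mouse embryonic fibroblasts kept for 3 h in medium without amino acids with the same cells at 0 h. Its samples were taken by their labels, as the 2 libraries of amino acid starvation at 3 h against the 2 control libraries, 4 of the 14 libraries of the series, over all 40800 genes of the deposited count table. Mouse embryonic fibroblasts are connective tissue cells grown from mouse embryos, and no genotype, strain or line is given for them in the labels used here. Starved cells were washed and then kept in medium that lacked amino acids and held dialyzed serum, from which small molecules have been removed. They were collected with trypsin and frozen in DMSO with dialyzed serum, whereas the controls stayed in their medium until they were frozen with ordinary serum. The wash, the fresh medium and the change of serum therefore go with starvation in every comparison with the control and cannot be told apart from it. Glucose starvation for 3 h shared that handling, so that its 2 libraries serve as the second comparison, and the 2 libraries of amino acid starvation for 6 h serve as the third. Whether replicate libraries stem from separate cultures is not said in the labels, and the p-values therefore rest on a spread that may be technical.

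Cells sense missing amino acids by several routes. Uncharged transfer RNAs activate the kinase GCN2, which phosphorylates the initiation factor eIF2α; general protein synthesis slows while the transcription factor ATF4 is made more efficiently and switches on genes for amino acid uptake, amino acid synthesis and tRNA charging, a programme called the integrated stress response. In parallel, sensors at the lysosome and in the cytosol switch off the kinase complex mTORC1, which otherwise promotes growth and restrains autophagy, by which a cell digests its own parts.

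The 4 libraries held 42556094 to 45434196 reads over the rows used, and values are given as CPM (read counts scaled to a common library size) after TMM scaling, a library scaling computed from the bulk of the genes. Reads of the mitochondrial genome made up 4.93% and 5.89% of the control libraries and 3.95% and 4.04% of the starved ones. Of 12 fibroblast markers fixed for this check, 10 were tested, and Thy1 and Lum had no read in the control or the starved libraries; Dcn, another common fibroblast marker, was at 0.174 and 0 CPM in the controls and 0.303 and 0.283 CPM after starvation. Collagen I (Col1a1), vimentin (Vim) and Prrx1, a mesenchymal transcription factor, were at 2485 and 2219, 2359.8 and 2132 and 60.9 and 67.3 CPM in the control libraries. Summed CPM of markers, scaled to library totals, were as follows. The 12 fibroblast markers summed to 8222 and 7487 CPM in the controls and to 6812 and 6577 CPM after starvation, and of the 10 tested 2 were higher and 4 lower, 2 of them by at least 2-fold. The 6 macrophage markers summed to 20.1 and 19.6 CPM in the controls and 26.1 and 24.8 CPM after starvation, with Ptprc and Adgre1 at 0 reads. The 5 endothelial markers summed to 4.43 and 5.36 CPM and to 21.8 and 18.4 CPM, nearly all of it Kdr, with Tie1 at 0 reads. The 6 neural markers summed to 302 and 306 CPM and to 323 and 324 CPM, most of it nestin (Nes), which is not confined to neural cells, with Sox10 at 0 reads. Muscle, adipocyte, epithelial and erythroid markers summed to under 7 CPM each in these 4 libraries. The part of other cells in the results was not tested. In bulk RNA, fewer cells of a type and less RNA per cell cannot be told apart.

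After 3 h without amino acids, most genes listed for the ATF4 programme, for growth factor response, for ribosome assembly and for cytosolic tRNA charging were higher, while most of those for sterol synthesis, ER chaperones and mitochondrial tRNA charging were lower. Of 17696 genes tested with edgeR's quasi-likelihood test, 10615 (60%) differed from the control at a Benjamini-Hochberg adjusted p under 0.05. Of these, 4938 (27.9% of the genes tested) were higher and 5677 (32.1%) lower, and 1750 (9.89%) were higher and 1679 (9.49%) lower by at least 2-fold, 19.4% in all. With so many genes called, the call of a single gene says little without its size, and every count for a gene list below has to be read against these shares. The lists were chosen with earlier results of these data known, so that their counts describe and do not test. The median log2 fold change of all genes was -0.07. Scaled to library totals instead of TMM, it was -0.24, 3824 genes were higher and 7345 lower, and the share of calls that were higher went from 46.5% to 34.2%. Fold changes below are those under TMM, and lists described below whose balance turned under library totals are named. The groups of 2 libraries did not overlap for 78.4% of all genes tested, so that a lack of overlap alone says little.

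Of the genes upstream of ATF4, those that end the response rose most. Of 15 tested genes for eIF2 kinases, eIF2B subunits and eIF2α phosphatases, 5 were higher and 7 lower, with a median log2 fold change of -0.16. Eif2ak4, which encodes GCN2, was at 50.5 and 45.0 CPM in the controls and 59.5 and 56.8 CPM after starvation, a log2 fold change of 0.29 ± 0.07 (SE), and was not called under library totals. Its cofactor Gcn1 was at 305 and 261 CPM in the controls and 248 and 245 CPM after starvation (-0.20 ± 0.07). Ppp1r15a, which encodes GADD34, the inducible subunit that returns phosphatase to eIF2α, was at 40 and 35.2 CPM in the controls and 502 and 474 CPM after starvation, a log2 fold change of 3.70 ± 0.06 (edgeR adjusted p = 1.84e-27). Its constitutive counterpart Ppp1r15b was at 111 and 118 CPM in the controls and 348 and 356 CPM after starvation (1.62 ± 0.06, edgeR adjusted p = 3.04e-20). For both phosphatase subunits the starved libraries lay far above the controls, and the exons of Ppp1r15a share positions with those of Tulp2. Eif2b4, a subunit of the exchange factor eIF2B that phosphorylated eIF2α inhibits, was the lowest of the list at 49.6 and 44.6 CPM in the controls and 19.6 and 21.1 CPM after starvation (-1.21 ± 0.08). Impact, an inhibitor of GCN2 signalling, was also higher, at 127 and 127 CPM against 83.5 and 88.0 CPM.

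Among bZIP transcription factors, the family of ATF4 and its dimer partners, 15 of 18 were higher and 1 was lower, with a median log2 fold change of 2.01. Atf5, a factor translated like ATF4 when eIF2α is phosphorylated, was at 33.4 and 31.0 CPM in the controls and 217 and 204 CPM after starvation (2.71 ± 0.06, edgeR adjusted p = 1.63e-24). Cebpg, a dimer partner of ATF4, was at 40.3 and 42.9 CPM in the controls and 209.7 and 217 CPM after starvation (2.36 ± 0.06). Atf6, whose product is cut at the Golgi during ER stress, was at 51.0 and 50.4 CPM in the controls and 225 and 214 CPM after starvation (2.11 ± 0.06). Nfil3, a repressor also tied to the clock, was at 19.2 and 17.7 CPM in the controls and 176 and 188 CPM after starvation (3.30 ± 0.08). Jdp2, an AP-1 repressor, was at 32.1 and 30.0 CPM in the controls and 91.2 and 92.8 CPM after starvation (1.57 ± 0.06). In all 5, the 2 starved libraries lay well above the 2 controls. Xbp1, a target of the ER stress sensor ATF6, did not pass the test and was at 64.3 and 66.5 CPM in the controls and 60.9 and 64.3 CPM after starvation. Atf6b was lower, at 51.6 and 49.5 CPM against 70.1 and 71.9 CPM. The exons of Atf5 share positions with those of Nup62, and those of Ddit3 with the methionyl-tRNA synthetase gene annotated as Mars; whether the counting used strand is not given in the sources used here, so that reads of such pairs cannot be told apart. The same holds for 7272 of the 17696 genes tested (41.1%). Examples among those named here are Eif2b4 with Snx17, Cars2 with Naxd, Junb with Prdx2 and Nr1d1 with Thra. Further examples are Fdft1 with Ctsb, Timp3 with Syn3, Hars with Hars2, Serpinb2 with Serpinb10 and Ampd3 with Rnf141. Gadd45a, Tcim, Ndrg1, Ccn2, Has2, Txnip, Neat1, Gas1, Ranbp6 and Angptl6, named below for their size, also share positions with other annotated genes.

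**Figure D1:**
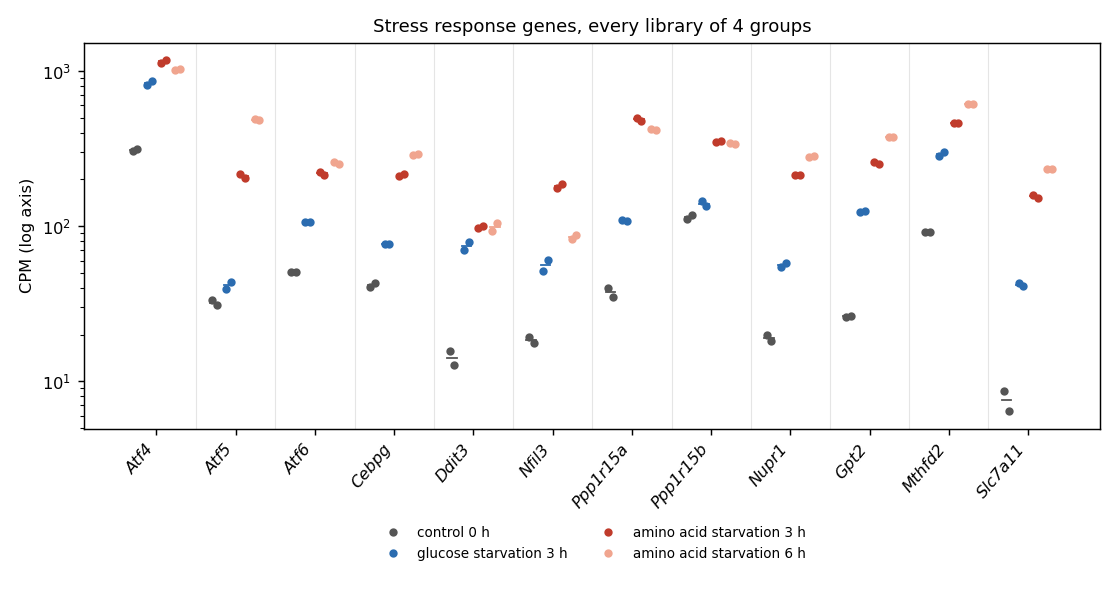
CPM on a log axis of 12 stress response genes in every library of the control, glucose starvation 3 h, amino acid starvation 3 h and amino acid starvation 6 h; points are libraries and short lines the group means of 2. Control libraries of Nupr1 sit at 20.0 and 18.1 CPM and the amino acid-starved ones at 215 and 213 CPM, with glucose starvation in between at 54.6 and 57.8 CPM.

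All 33 genes of a list of established ATF4 targets were higher, with a median log2 fold change of 2.71, where 27.9% of all genes tested were. Nupr1, a small stress-induced chromatin protein, was at 20.0 and 18.1 CPM in the controls and 215 and 213 CPM after starvation (3.49 ± 0.06, edgeR adjusted p = 4.52e-27). Gpt2, the mitochondrial alanine aminotransferase, was at 26.0 and 26.4 CPM in the controls and 259 and 250.4 CPM after starvation (3.28 ± 0.06). Vldlr, a lipoprotein receptor, was at 9.86 and 10.2 CPM in the controls and 106 and 112 CPM after starvation (3.45 ± 0.07). For each of the 3, both starved libraries lay far above both controls. At the low end of the list, Phgdh, which opens serine synthesis, was at 343 and 310.2 CPM in the controls and 590.2 and 590.1 CPM after starvation (0.85 ± 0.06). Wars, a tryptophanyl-tRNA synthetase, was at 71.2 and 71.5 CPM in the controls and 130.3 and 130.1 CPM after starvation (0.87 ± 0.05). The secreted hormones Fgf21 and Gdf15 stayed rare, at 3.38 and 3.40 CPM and 1.11 and 1.75 CPM after starvation against 0.0872 and 0.0876 CPM and 0.174 and 0.153 CPM. Fgf21 had the highest log2 fold change of the list, 5.23, followed by Trib3, a pseudokinase that restrains ATF4, at 5.04.

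ATF4 binds as a dimer with C/EBP proteins to the C/EBP-ATF response element (CARE). RefSeq promoter windows of GRCm38.p6, 250 bases before to 50 after each start, were matched for 28 of the 33 ATF4 targets and searched on both strands for TGATGNAAN. At least 1 match lay in the windows of 10 of the 28 genes (35.7%), against 1215 of 27025 genes (4.5%) with a window of that length. The 10 genes were Asns, Atf3, Chac1, Fgf21, Herpud1, Nupr1, Pycr1, Slc7a11, Trib3 and Vldlr; the match of Trib3 lay after the start. The 250 bases before the start are shown for 5 of them, picked after the matches were known, with the matching bases in capitals. All 5 rose at least 4-fold, as did Fgf21, Herpud1, Trib3 and Vldlr, which are not shown. Asns (chr6:7693210-7693459, minus strand) encodes asparagine synthetase, Slc7a11 (chr3:50443614-50443863, minus strand) the cystine importer, Nupr1 (chr7:126625471-126625720, minus strand) the stress protein above, Atf3 (chr1:191183334-191183583, minus strand) a bZIP repressor and Chac1 (chr2:119350992-119351241, plus strand) an enzyme that degrades glutathione.
Asns: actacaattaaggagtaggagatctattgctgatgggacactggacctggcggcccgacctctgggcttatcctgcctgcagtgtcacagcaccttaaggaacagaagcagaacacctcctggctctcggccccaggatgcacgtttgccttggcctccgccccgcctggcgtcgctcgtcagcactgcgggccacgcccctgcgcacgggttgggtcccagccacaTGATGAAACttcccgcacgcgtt
Slc7a11: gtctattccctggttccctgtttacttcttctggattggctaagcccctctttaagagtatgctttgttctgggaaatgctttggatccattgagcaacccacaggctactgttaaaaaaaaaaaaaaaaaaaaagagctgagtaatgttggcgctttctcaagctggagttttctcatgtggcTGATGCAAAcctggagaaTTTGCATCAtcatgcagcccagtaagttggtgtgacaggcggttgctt
Nupr1: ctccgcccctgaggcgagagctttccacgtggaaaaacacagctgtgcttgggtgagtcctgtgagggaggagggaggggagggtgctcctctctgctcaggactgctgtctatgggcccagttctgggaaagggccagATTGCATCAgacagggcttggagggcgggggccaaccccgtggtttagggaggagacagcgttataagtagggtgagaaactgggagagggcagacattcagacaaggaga
Atf3: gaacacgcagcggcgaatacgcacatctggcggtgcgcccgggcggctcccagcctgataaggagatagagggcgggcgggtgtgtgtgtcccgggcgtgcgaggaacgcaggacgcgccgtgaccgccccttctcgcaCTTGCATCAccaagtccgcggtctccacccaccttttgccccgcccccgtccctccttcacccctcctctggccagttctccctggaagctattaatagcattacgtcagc
Chac1: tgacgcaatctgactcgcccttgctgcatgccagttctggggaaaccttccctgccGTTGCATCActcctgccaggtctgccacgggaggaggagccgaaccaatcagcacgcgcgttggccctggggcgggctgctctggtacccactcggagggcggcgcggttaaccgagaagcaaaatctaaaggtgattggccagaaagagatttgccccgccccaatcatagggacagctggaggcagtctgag
The Asns match begins 23 bases before the start on the strand of the gene. Slc7a11 holds 2 matches, 66 and 48 bases before the start and on opposite strands, while those of Nupr1 and Atf3 both begin 111 bases before it, on the strand opposite to the gene. The log2 fold changes of these genes were 2.20 for Asns, 4.36 for Slc7a11, 3.49 for Nupr1, 4.89 for Atf3 and 4.32 for Chac1. A match describes letters in a window and is no evidence of binding, and the other 18 targets with a window, Sesn2 and Ppp1r15a among them, rose without these letters in it.

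Aminoacyl-tRNA synthetases, which load each amino acid on its tRNA, were mostly higher for the cytosolic and mostly lower for the mitochondrial forms. Of 20 cytosolic enzymes, 14 were higher and 3 lower (median 0.84); of 17 mitochondrial enzymes, 1 was higher and 11 lower (median -0.42). Tars, for threonine, was at 202 and 209.6 CPM in the controls and 693 and 695 CPM after starvation (1.75 ± 0.05, edgeR adjusted p = 5.66e-22). Nars, for asparagine, was at 268 and 277 CPM in the controls and 930.4 and 943 CPM after starvation (1.78 ± 0.05). Aars, for alanine, was at 406 and 377 CPM in the controls and 1072 and 1058 CPM after starvation (1.44 ± 0.05). The 3 lower cytosolic members were Farsa, Kars and Hars. Farsa, a subunit of the phenylalanine enzyme, was at 129 and 129.9 CPM in the controls and 86.0 and 88.0 CPM after starvation (-0.57 ± 0.06), while its partner subunit Farsb was at 70.0 and 69.5 CPM in the controls and 98.7 and 99.2 CPM after starvation (0.50 ± 0.06). Kars, which also serves mitochondria, was at 313 and 307 CPM in the controls and 235 and 235 CPM after starvation (-0.40 ± 0.05). Dars, Qars and Mars1 did not pass the test, with log2 fold changes of 0.00, 0.01 and -0.01.

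On the mitochondrial side, Pars2, for proline, was at 5.52 and 5.54 CPM in the controls and 1.62 and 1.51 CPM after starvation (-1.82 ± 0.18, edgeR adjusted p = 5.38e-10). Rars2, for arginine, was at 14.1 and 14.3 CPM in the controls and 5.61 and 5.61 CPM after starvation (-1.34 ± 0.11). Starved and control libraries did not overlap for either gene. Yars2, for tyrosine, was the single member that was higher, at 29.2 and 31.1 CPM against 24.8 and 23.3 CPM, and under library totals 0 members were higher and 15 lower. Lars2, for leucine, was at 79.3 and 95.1 CPM in the controls and 56.8 and 59.0 CPM after starvation, without overlap, and did not pass (edgeR adjusted p = 0.116). The cysteine pair gives the contrast within 1 amino acid, with a log2 fold change of 1.64 for cytosolic Cars and -1.05 for mitochondrial Cars2.

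**Figure D2:**
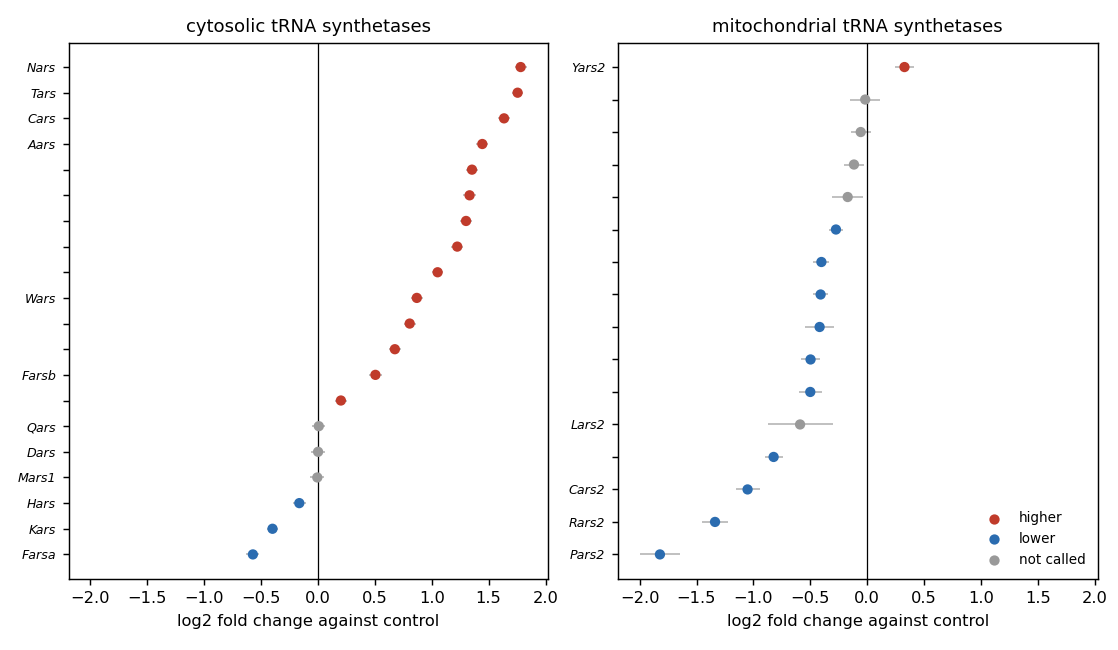
Log2 fold change of amino acid starvation 3 h against the control for cytosolic (left) and mitochondrial (right) tRNA synthetases; points are estimates over 2 libraries a group, bars standard errors, red higher, blue lower and grey not called, with names for the genes named in the text and 16 of the 17 mitochondrial members shown. The cytosolic genes reach 1.78 for Nars and the mitochondrial ones go down to -1.82 for Pars2.

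Of 28 genes tested for amino acid carriers, 16 were higher and 9 lower, with a median log2 fold change of 0.60. Slc38a2, the sodium-coupled carrier SNAT2 of small neutral amino acids, was at 438 and 442 CPM in the controls and 1819 and 1816 CPM after starvation (2.05 ± 0.05, edgeR adjusted p = 3.36e-23). Slc1a4, a carrier of alanine, serine and cysteine, was at 34.8 and 32.3 CPM in the controls and 214 and 215 CPM after starvation (2.68 ± 0.06). Slc1a5, a glutamine carrier, was at 69.2 and 66.3 CPM in the controls and 192 and 193 CPM after starvation (1.51 ± 0.06). Each of these was higher in both starved libraries than in either control. The subunits of the exchanger LAT1, Slc7a5 and Slc3a2, were at 829.5 and 827 and at 860.1 and 879.6 CPM after starvation against 237 and 223 and 189.8 and 189.8 CPM.

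Those that were lower included the glutamate carrier Slc1a3, at 30.4 and 30.9 CPM in the controls and 12.9 and 12.8 CPM after starvation (-1.26 ± 0.11). Slc43a2, a facilitated carrier of large neutral amino acids, was at 6.04 and 5.36 CPM in the controls and 2.53 and 2.45 CPM after starvation (-1.2 ± 0.20). Lysosomal carriers moved both ways: Slc38a9, a carrier that signals lysosomal arginine to mTORC1, was at 7.39 and 7.62 CPM in the controls and 4.19 and 3.70 CPM after starvation (-0.93 ± 0.15). Slc66a1, which exports cationic amino acids from lysosomes, was at 11.2 and 10.4 CPM in the controls and 5.63 and 6.53 CPM after starvation (-0.83 ± 0.13). Slc38a7, a lysosomal glutamine carrier, was higher, with a log2 fold change of 1.32 ± 0.06, as was Slc36a1, another lysosomal exporter, at 0.21 ± 0.08.

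Enzymes that make serine and feed its carbon into folate were mostly higher, 10 of 14 against 2 lower, with a median of 1.12. Mthfd2, of mitochondrial folate metabolism, was at 91.9 and 91.9 CPM in the controls and 464 and 463 CPM after starvation (2.34 ± 0.05). Aldh1l2, the mitochondrial enzyme that returns carbon units to carbon dioxide, was at 76.3 and 77.3 CPM in the controls and 265 and 248 CPM after starvation (1.74 ± 0.06). Cytosolic Mthfd1 and methionine synthase, Mtr, were lower at -0.29 and -0.25.

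Of 29 other enzymes of amino acid metabolism, 12 were higher and 13 lower. Aldh18a1, which starts proline synthesis from glutamate, was at 149 and 146 CPM in the controls and 489 and 490.1 CPM after starvation (1.73 ± 0.05). Got1, the cytosolic aspartate aminotransferase, was at 69.6 and 69.6 CPM in the controls and 159 and 165 CPM after starvation (1.22 ± 0.06). Bcat1, the cytosolic branched-chain aminotransferase, was at 121 and 120.2 CPM in the controls and 365 and 354 CPM after starvation (1.58 ± 0.05), whereas Bcat2, its mitochondrial counterpart, was at 22.7 and 18.6 CPM in the controls and 12.1 and 11.2 CPM after starvation (-0.83 ± 0.11). Ivd, Mccc2 and Bckdhb, which act further down in branched-chain breakdown, were lower at -0.89, -0.70 and -0.61. Pycr1, a proline-forming reductase, was at 14.1 and 14.6 CPM in the controls and 32.5 and 31.9 CPM after starvation (1.17 ± 0.07).

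The genes of amino acid sensing upstream of mTORC1 went mainly down. Of 19 sensors and brakes, 12 were lower and 5 higher, with a median of -0.55. After glucose starvation 11 of the 19 were lower than the control and 3 higher. In the direct comparison 10 were higher and 4 lower after amino acid than after glucose starvation (median 0.28). Castor2, which forms arginine-sensing dimers with CASTOR1, was at 32.7 and 34.0 CPM in the controls and 8.03 and 8.37 CPM after starvation (-2.02 ± 0.11, edgeR adjusted p = 6.76e-16). Castor1 itself was at 4.62 and 5.28 CPM in the controls and 2.37 and 2.41 CPM after starvation (-1.05 ± 0.19). The sestrins, leucine-sensing inhibitors of mTORC1, parted: Sesn1 was at 25.9 and 22.1 CPM in the controls and 13.2 and 12.2 CPM after starvation (-0.91 ± 0.11). Sesn3 was at 30.6 and 32.1 CPM in the controls and 19.1 and 15.7 CPM after starvation (-0.85 ± 0.09), while Sesn2, an ATF4 target, was higher by 3.05 ± 0.07. The translation repressors below mTORC1 parted in the same way, with Eif4ebp1 at 92.2 and 80.8 CPM in the controls and 297 and 294 CPM after starvation (1.77 ± 0.07). Eif4ebp2 was at 227 and 217 CPM in the controls and 138 and 134 CPM after starvation (-0.71 ± 0.05). For each of these pairs, the libraries of the groups did not overlap in either gene.

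Among 21 genes of mTORC1, the Rag GTPases and the folliculin branch, 9 were higher and 4 lower. Under library totals the split was 9 higher and 8 lower. Rheb, the GTPase that activates mTORC1, was at 62.1 and 78.1 CPM in the controls and 166 and 176 CPM after starvation (1.29 ± 0.09). Rragc, a Rag GTPase, was at 80.3 and 77.6 CPM in the controls and 155 and 164 CPM after starvation (1.01 ± 0.06). Fnip1, the partner of folliculin, was at 57.5 and 62.2 CPM in the controls and 174 and 165 CPM after starvation (1.5 ± 0.08). Tfe3, a lysosomal gene activator held in the cytosol by mTORC1, was at 66.2 and 62.1 CPM in the controls and 127 and 127 CPM after starvation (0.99 ± 0.06). Rictor, the defining subunit of mTORC2, was at 75.3 and 75.5 CPM in the controls and 203 and 196 CPM after starvation (1.40 ± 0.07). The mTOR kinase gene itself was lower, at 51.4 and 47.6 CPM against 69.8 and 57.4 CPM (-0.36 ± 0.08), and the mTORC1 subunit Rptor did not pass the test (0.05 ± 0.07).

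Most genes for the start of autophagy were higher. Of 18 genes for the ULK1 complex, the lipid kinase VPS34 and the proteins that read its lipid, 12 were higher and 4 lower (median 0.45). Wdr45, also called WIPI4, was at 18.6 and 17.4 CPM in the controls and 64.0 and 59.9 CPM after starvation (1.78 ± 0.07, edgeR adjusted p = 2.53e-18). Wipi2 was at 95.6 and 94.9 CPM in the controls and 284 and 292 CPM after starvation (1.60 ± 0.05). Atg14, which directs VPS34 to autophagy, was at 13.2 and 12.2 CPM in the controls and 31.0 and 27.3 CPM after starvation (1.2 ± 0.09). Rb1cc1, the FIP200 scaffold, was at 50.3 and 59.1 CPM in the controls and 118 and 115 CPM after starvation (1.08 ± 0.07). Ulk2, the second ULK kinase, was in contrast lower at 14.6 and 15.4 CPM against 25.9 and 25.9 CPM (-0.79 ± 0.09). In the conjugation step, 6 of 15 were higher and 5 lower, and 5 and 6 under library totals. Atg4c, a protease of ATG8 proteins, was at 6.83 and 7.05 CPM in the controls and 2.63 and 2.74 CPM after starvation (-1.37 ± 0.17). Among 26 lysosome genes, 15 were higher and 5 lower with a median of 0.17; under library totals 10 were higher and 10 lower with a median of 0.00. Cln3, a lysosomal membrane protein whose exons share positions with those of Apobr, was at 1.77 and 1.53 CPM in the controls and 14.1 and 12.8 CPM after starvation (3.02 ± 0.15).

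**Figure D3:**
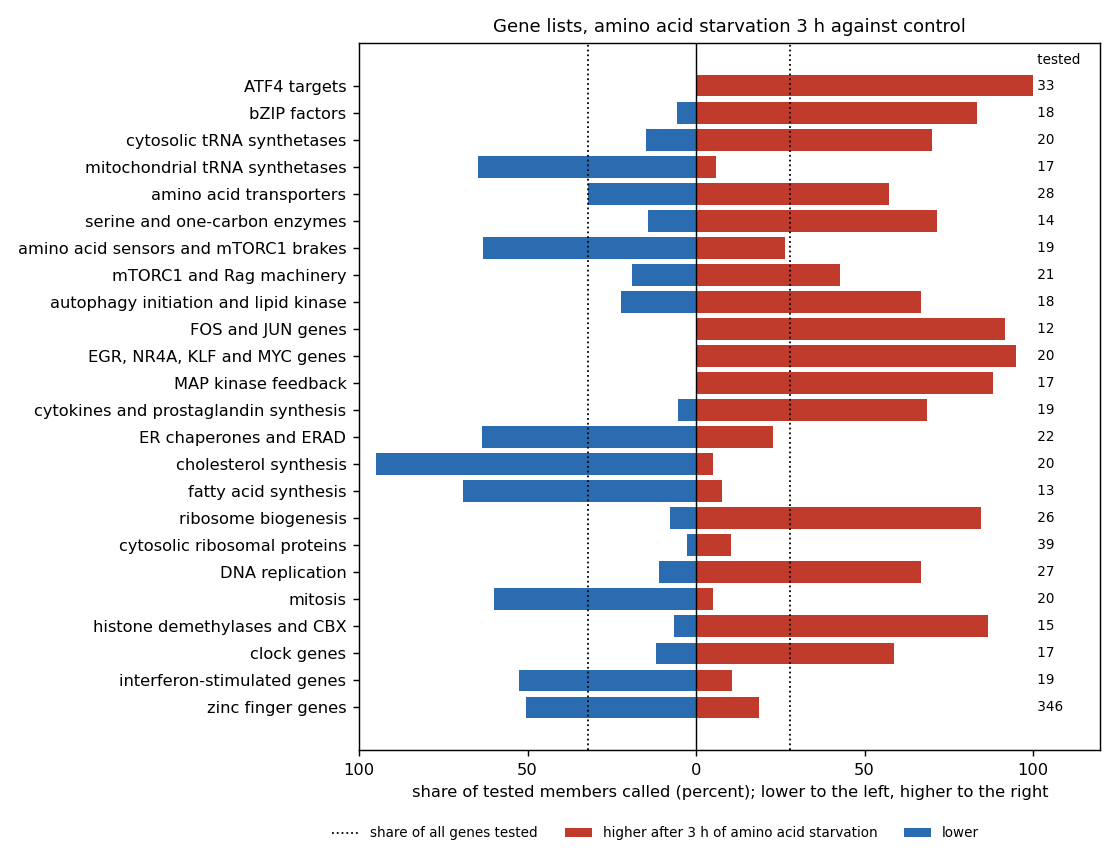
Share of the tested members of 24 gene lists that were called higher (red, right) or lower (blue, left) after 3 h of amino acid starvation, with the number tested at the right edge; dotted lines mark the shares over all genes tested, 27.9% higher and 32.1% lower. All 33 ATF4 targets lie to the right and 19 of 20 cholesterol synthesis genes to the left.

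Most genes that answer growth factors quickly were higher. Of 12 FOS, JUN and small MAF genes, 11 were higher and 0 lower (median 2.19), and of 20 EGR, NR4A, KLF and related genes, 19 were higher and 0 lower (median 2.75). After glucose starvation, 8 of the 12 were higher than the control and 1 lower (median 0.68). Of the 20, 17 were then higher and 1 lower (median 1.29). Directly compared, 16 of the 20 were higher and 0 lower after amino acid than after glucose starvation. Egr3, a zinc-finger activator, was at 0.807 and 0.569 CPM in the controls and 30.9 and 29.2 CPM after starvation (5.44 ± 0.18, edgeR adjusted p = 1.37e-20), and its relative Egr2 was at 0.698 and 1.18 CPM in the controls and 31.3 and 26.7 CPM after starvation (4.94 ± 0.21). Junb, an AP-1 subunit, was at 87.1 and 72.9 CPM in the controls and 689.8 and 716 CPM after starvation (3.14 ± 0.07). Ier2, an early response regulator, was at 36.0 and 30.5 CPM in the controls and 411 and 433 CPM after starvation (3.66 ± 0.09). Klf4 was at 9.70 and 9.90 CPM in the controls and 119.6 and 115 CPM after starvation (3.58 ± 0.07). In all 5 genes the starved libraries lay apart from the controls. Sik1, an early gene driven by cyclic AMP, did not pass (0.13 ± 0.09).

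The feedback inhibitors of the MAP kinase ERK moved with them: 15 of 17 were higher and 0 lower, with a median of 1.43. After glucose starvation 14 of the 17 were also higher than the control and 2 lower (median 1.12). Dusp4, a nuclear ERK phosphatase, was at 6.56 and 7.12 CPM in the controls and 50.1 and 49.2 CPM after starvation (2.86 ± 0.10). Errfi1, an inhibitor of the EGF receptor, was at 20.2 and 21.6 CPM in the controls and 180.2 and 188 CPM after starvation (3.14 ± 0.07). Of the EGF receptor's ligands, Hbegf was at 37.8 and 42.2 CPM in the controls and 346 and 341 CPM after starvation (3.10 ± 0.06). Ereg was at 9.49 and 10.7 CPM in the controls and 53.9 and 49.8 CPM after starvation (2.36 ± 0.09), and the receptor Egfr itself was higher at 28.6 and 29.2 CPM against 13.4 and 12.3 CPM. Tgfa, another ligand, did not pass (0.11 ± 0.14), and the receptor Erbb3 was lower at 3.13 and 2.62 CPM against 8.44 and 8.32 CPM (-1.54 ± 0.17).

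Among 19 cytokine and prostaglandin genes, 13 were higher and 1 lower (median 1.56). After glucose starvation 11 of the 19 were also higher than the control and 0 lower (median 0.95). Lif, a cytokine of the interleukin 6 family, was at 7.02 and 5.65 CPM in the controls and 60.6 and 61.8 CPM after starvation (3.27 ± 0.10). Il1rl1, the receptor of interleukin 33, was at 9.99 and 11.9 CPM in the controls and 129 and 125 CPM after starvation (3.54 ± 0.08). Ccl20, a chemokine, was at 0.698 and 0.482 CPM in the controls and 8.23 and 9.32 CPM after starvation (3.89 ± 0.34). Il6 stayed below 1 CPM in all 4 libraries and did not pass. Cxcl12, a chemokine of resting stroma, was the single lower member, at 95.4 and 91.6 CPM in the controls and 49.2 and 49.0 CPM after starvation (-0.93 ± 0.06). Brakes on inflammation and mRNA stability were higher in 14 of 16 cases (median 0.94). Zfp36, which triggers decay of AU-rich mRNAs, was at 8.81 and 9.72 CPM in the controls and 50.4 and 48.7 CPM after starvation (2.42 ± 0.10). Tnfaip3, the NF-kB inhibitor A20, was at 47.9 and 44.7 CPM in the controls and 150.2 and 153 CPM after starvation (1.71 ± 0.06).

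**Figure D4:**
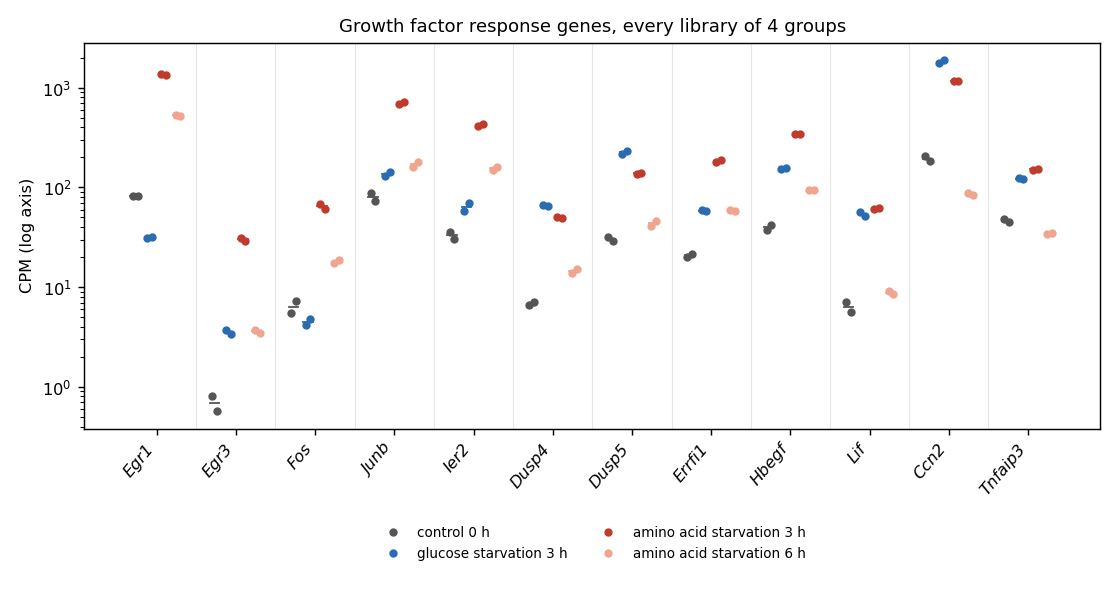
CPM on a log axis of 12 growth factor response genes in every library of 4 groups; points are libraries and short lines group means of 2. Egr1 sits at 1361 and 1342 CPM after 3 h of amino acid starvation and at 31.2 and 31.5 CPM after 3 h of glucose starvation, and Ccn2 at 1180.2 and 1177 CPM at 3 h and 88.5 and 84.7 CPM at 6 h.

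Most of the listed genes for chaperones of the endoplasmic reticulum were lower. Of 22 genes for ER chaperones and ER-associated degradation, 14 were lower and 5 higher, with a median of -0.28. Pdia4, a disulfide isomerase, was at 302 and 307 CPM in the controls and 177 and 187 CPM after starvation (-0.74 ± 0.05, edgeR adjusted p = 3.23e-13). Sdf2l1, a cofactor of the chaperone BiP, was at 32.8 and 27.6 CPM in the controls and 14.8 and 16.7 CPM after starvation (-0.94 ± 0.09). Creld2 was at 104 and 101 CPM in the controls and 58.1 and 62.3 CPM after starvation (-0.77 ± 0.06). Calreticulin, Calr, was at 1967 and 1933 CPM in the controls and 1472 and 1485 CPM after starvation (-0.40 ± 0.05). Against these, Herpud1, which organises ER-associated degradation, was at 76.4 and 73.8 CPM in the controls and 475 and 478 CPM after starvation (2.66 ± 0.06). Dnajb9, a BiP cochaperone, was at 8.0 and 10.4 CPM in the controls and 50.9 and 50.3 CPM after starvation (2.46 ± 0.10). Hspa5, which encodes BiP, was at 1413 and 1424 CPM in the controls and 1634 and 1706 CPM after starvation (0.23 ± 0.05), a difference that was not called under library totals. The direct comparison with glucose starvation separated the starvations: 17 of the 22 genes were lower after amino acid than after glucose starvation and 4 higher, where 27.7% and 26.7% of all genes tested were. Hspa5 was at 3362 and 3426 CPM after glucose starvation, a log2 difference of -1.02 ± 0.05 (edgeR adjusted p = 8.45e-16). Pdia4 was at 429.9 and 431 CPM, a difference of -1.24 ± 0.05.

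**Figure D5:**
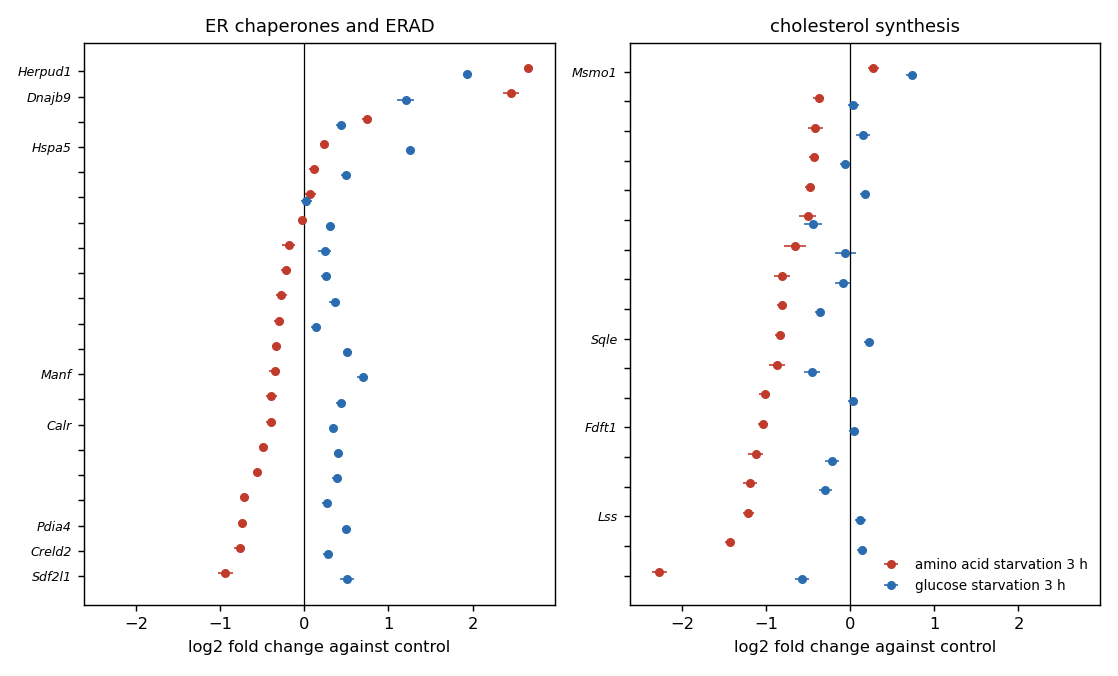
Log2 fold change against the control of ER chaperone and degradation genes (left) and cholesterol synthesis genes (right) after 3 h of amino acid (red) or glucose (blue) starvation; points are estimates over 2 libraries a group, bars standard errors, names are given for genes named in the text, 18 of the 20 cholesterol genes are shown, and the rare Derl3 is left out. Both starvations share the control libraries, and Hspa5 lies at 0.23 and 1.26.

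Cholesterol synthesis genes fell almost without exception, 19 of 20, with a median of -0.82. Lss, which closes the sterol rings, was at 65.9 and 60.0 CPM in the controls and 28.3 and 26.1 CPM after starvation (-1.21 ± 0.07, edgeR adjusted p = 2.72e-15). Fdft1, squalene synthase, was at 88.1 and 89.9 CPM in the controls and 43.3 and 43.7 CPM after starvation (-1.03 ± 0.06). The exception was Msmo1, a demethylase of the pathway, at 111 and 134 CPM in the controls and 148 and 148 CPM after starvation (0.27 ± 0.06); under library totals it was not among the higher genes, since 0 members were. Srebf1 and Srebf2 encode the activators of these genes. Srebf1 was at 113 and 96.8 CPM in the controls and 64.9 and 68.0 CPM after starvation (-0.66 ± 0.08), and Srebf2 did not pass (-0.11 ± 0.06). After glucose starvation Lss was at 67.2 and 69.8 CPM and Fdft1 at 88.5 and 95.2 CPM, and 19 of the 20 genes were lower after amino acid than after glucose starvation.

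Fatty acid synthesis followed, with 9 of 13 lower and 1 higher. Scd2, a desaturase, was at 1043 and 1095 CPM in the controls and 304 and 302 CPM after starvation (-1.82 ± 0.06). Elovl6, which lengthens palmitate, was at 72.2 and 77.7 CPM in the controls and 27.5 and 28.1 CPM after starvation (-1.43 ± 0.08). After glucose starvation they were at 449 and 392 and 30.5 and 28.4 CPM. In fatty acid use, 6 of 17 genes were higher and 7 lower, with the 3 highest in Angptl4, Acot1 and Acot2. Acot2, a mitochondrial acyl-CoA thioesterase with a close copy in Acot1 that reads could fall on, was at 2.57 and 3.24 CPM in the controls and 37.2 and 38.3 CPM after starvation (3.70 ± 0.10). Angptl4, which inhibits lipoprotein lipase, was at 1.18 and 0.985 CPM in the controls and 17.8 and 18.0 CPM after starvation (4.04 ± 0.19). Cpt2, which completes the import of fatty acids into mitochondria, was lower at 4.9 and 4.86 CPM against 13.3 and 14.6 CPM (-1.52 ± 0.13).

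Cell cycle genes separated by phase. Of 27 DNA replication genes, 18 were higher and 3 lower (median 0.34), whereas of 20 mitosis genes 1 was higher and 12 were lower (median -0.21). Under library totals the counts were 13 and 5 for replication and 0 and 17 for mitosis. After glucose starvation the mitosis genes were lower more widely, with 0 higher than the control and 19 lower (median -0.65). Of the replication genes 5 were then higher and 7 lower (median 0.01). Cdt1 and Cdc6, which load the replicative helicase, were at 304 and 318 CPM and 164 and 168 CPM against 123 and 102 CPM and 73.5 and 81.0 CPM (1.47 ± 0.07 and 1.10 ± 0.06). Plk1, the mitotic polo kinase, was at 158 and 145 CPM in the controls and 71.0 and 70.2 CPM after starvation (-1.10 ± 0.06), and the kinetochore gene Cenpf was at 114 and 119.9 CPM in the controls and 64.1 and 65.1 CPM after starvation (-0.85 ± 0.07). Of 16 cyclins and CDK inhibitors, 7 were higher and 5 lower, and 7 and 8 under library totals. The G1 cyclin Ccnd3 was at 123 and 119.9 CPM in the controls and 53.7 and 52.9 CPM after starvation (-1.19 ± 0.06), and the CDK4 inhibitor Cdkn2d, p19, was at 24.8 and 24.7 CPM in the controls and 6.97 and 7.38 CPM after starvation (-1.79 ± 0.11), while Ccnd2 was higher by 0.60 ± 0.06.

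Among 19 p53 targets and GADD45 genes, 12 were higher and 5 lower. Mdm2, the ligase that degrades p53, was at 66.2 and 67.2 CPM in the controls and 138 and 142 CPM after starvation (1.07 ± 0.06), but Zmat3 and Ccng1, other p53 targets, were lower at -0.90 and -0.77. Of 15 BCL2 family genes, 6 were higher and 5 lower, and 6 and 7 under library totals. BH3-only killers were found on both sides: Bbc3, PUMA, was at 4.75 and 4.69 CPM in the controls and 25.3 and 25.5 CPM after starvation (2.43 ± 0.13). Pmaip1, NOXA, was at 1.35 and 1.27 CPM in the controls and 16.2 and 15.8 CPM after starvation (3.61 ± 0.16). Bcl2l11, BIM, was at 20.5 and 19.7 CPM in the controls and 71.7 and 68.9 CPM after starvation (1.81 ± 0.09). Mcl1, a protector that NOXA binds, was higher as well, at 115 and 134 CPM in the controls and 344 and 370.1 CPM after starvation (1.52 ± 0.07). Bak1, a pore-forming effector, was lower at 88.4 and 78.8 CPM against 173 and 161 CPM (-1.0 ± 0.06), as were the BH3-only genes Bad and Bid at -0.51 and -0.31 and the rare Bik. Bax and Bcl2l1 did not pass.

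Ribosome assembly and ribosomal protein genes differed. Of 26 ribosome biogenesis genes, 22 were higher and 2 lower (median 0.44); of 39 cytosolic ribosomal protein genes, 34 did not pass, 4 were higher and 1 was lower (median 0.04). Under library totals 17 biogenesis genes were still higher, but 17 ribosomal protein genes were lower and 1 was higher, so that their direction depends on the scaling. After glucose starvation 22 of the 26 biogenesis genes were also higher than the control and 0 lower (median 0.34). In the direct comparison 11 were higher and 6 lower after amino acid than after glucose starvation (median 0.05). Gnl3, nucleostemin, was at 142 and 156 CPM in the controls and 298 and 306 CPM after starvation (1.02 ± 0.06). Nop58, of the box C/D particles that methylate ribosomal RNA, was at 219.6 and 253 CPM in the controls and 419 and 431 CPM after starvation (0.85 ± 0.06). Of 15 host genes of small nucleolar RNAs and nuclear long RNAs, 8 were higher and 3 lower. Snhg1 was at 127 and 143 CPM in the controls and 399 and 414 CPM after starvation (1.59 ± 0.06), although small nucleolar RNA genes lie within its bounds. Neat1, the scaffold RNA of paraspeckles, was at 297 and 309.8 CPM in the controls and 209 and 212 CPM after starvation (-0.53 ± 0.05) and at 1731 and 1771 CPM after glucose starvation.

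Of 24 translation factors, 15 were higher and 2 lower with a median of 0.18, and under library totals 11 and 8 with a median of 0.00. Eif1, which selects the start codon, was at 406 and 411 CPM in the controls and 1009.8 and 1042 CPM after starvation (1.33 ± 0.05). Eif1a was at 105 and 116 CPM in the controls and 277 and 264 CPM after starvation (1.29 ± 0.06). Eif4e, the cap-binding protein, was at 139 and 152 CPM in the controls and 253 and 250.3 CPM after starvation (0.79 ± 0.05). Eef2k, the kinase that slows elongation, was lower at 22.7 and 21.8 CPM against 36.7 and 35.5 CPM (-0.70 ± 0.08).

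Among matrix genes, the chains of collagens I and III were lower, whereas Col5a1 and Col5a2, of collagen V, did not pass. Col1a2 was at 1192 and 1118 CPM in the controls and 521 and 518 CPM after starvation (-1.15 ± 0.05). Col3a1 was at 14.6 and 15.5 CPM in the controls and 5.33 and 5.59 CPM after starvation (-1.46 ± 0.14). Timp3, an inhibitor of matrix proteases, was at 673 and 727 CPM in the controls and 2508 and 2416 CPM after starvation (1.81 ± 0.06). Thbs1, thrombospondin 1, was at 243 and 220.2 CPM in the controls and 1082 and 1014 CPM after starvation (2.18 ± 0.07). Tnc, tenascin C, was at 97.5 and 86.7 CPM in the controls and 474 and 445 CPM after starvation (2.32 ± 0.06). In total 7 of 25 matrix genes were higher and 10 lower, and their median of 0.07 was -0.10 under library totals. Targets of the mechanosensitive factors YAP and TEAD were higher in 12 of 15 cases (median 0.84), and also in 12 of 15 after glucose starvation (median 0.63). In the direct comparison 6 were higher and 5 lower after amino acid than after glucose starvation (median 0.08). Ccn2, a matricellular signal, was at 204 and 184 CPM in the controls and 1180.2 and 1177 CPM after starvation (2.60 ± 0.06). F3, tissue factor, was at 16.5 and 15.1 CPM in the controls and 65.1 and 60.6 CPM after starvation (1.99 ± 0.07). Of 20 actin and SRF genes, 12 were higher and 3 lower. After glucose starvation 16 of the 20 were higher than the control and 0 lower. Directly compared, 2 were higher and 9 lower after amino acid than after glucose starvation. Zyx, zyxin, was at 339.9 and 320.0 CPM in the controls and 697 and 655 CPM after starvation (1.03 ± 0.06). Cnn2, calponin 2, was at 352 and 339.9 CPM in the controls and 204 and 200.5 CPM after starvation (-0.77 ± 0.06). The CArG box, the motif bound by SRF, lay in the promoter windows of 5 of 17 of these genes (29.4%), Actg1, Cnn2, Filip1l, Myl9 and Vcl, against 1.81% of all genes with a window. Of these, Actg1, Filip1l and Vcl were higher, Cnn2 was lower and Myl9 did not pass. The other lists searched differed. CARE lay in the windows of 5 of 13 cytosolic tRNA synthetases (38.5%) and 3 of 21 amino acid transporters (14.3%), against 4.5% of all genes with a window. A CArG box lay in those of 2 of 13 EGR, NR4A, KLF and MYC genes (15.4%). None of 10 FOS and JUN genes held a CArG box, CARE or the AP-1 motif TGANTCA. Of all genes with a window, 8.97% held the AP-1 motif, so that none of 10 says little. Of 15 MAP kinase feedback genes, 1 held a CArG box and none a CARE. For cholesterol synthesis 15 of 20 genes had a window, of which 1 held the sterol motif TCACNCCAC, against 1.44% of all genes with a window. All these shares rest on few windows, and sites outside the windows were not searched.

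Clock genes were higher in 10 of 17 cases and lower in 2 (median 0.78). Arntl, which encodes BMAL1, was at 8.83 and 8.15 CPM in the controls and 71.2 and 66.6 CPM after starvation (3.02 ± 0.08), and its repressor Nr1d1, REV-ERBα, was at 17.3 and 15.2 CPM in the controls and 75.5 and 71.6 CPM after starvation (2.18 ± 0.09). Ciart, another repressor of the clock, was at 3.49 and 2.87 CPM in the controls and 41.8 and 40.5 CPM after starvation (3.69 ± 0.11). Per3 was at 14.6 and 14.3 CPM in the controls and 6.84 and 6.02 CPM after starvation (-1.17 ± 0.14) and Per2 did not pass (0.17 ± 0.12).

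Insulin and FOXO genes were higher in 11 of 17 cases (median 0.68). Pdk4, which blocks pyruvate oxidation, was at 11.0 and 10.4 CPM in the controls and 54.9 and 52.8 CPM after starvation (2.33 ± 0.10). Ccng2, an atypical cyclin, was at 11.0 and 14.5 CPM in the controls and 64.4 and 67.6 CPM after starvation (2.37 ± 0.09). Txnip, an inhibitor of glucose uptake, was at 9.59 and 8.28 CPM in the controls and 15.5 and 13.1 CPM after starvation (0.68 ± 0.13) and at 0.542 and 0.173 CPM after glucose starvation. Histone demethylases and related chromatin genes were higher in 13 of 15 cases (median 0.38). Kdm6b, a demethylase of histone H3, was at 39.4 and 36.0 CPM in the controls and 226 and 211 CPM after starvation (2.54 ± 0.07). Kdm7a was at 5.97 and 8.21 CPM in the controls and 27.6 and 26.1 CPM after starvation (1.92 ± 0.12), and Kdm2b was the lower member, at 65.8 and 61.1 CPM in the controls and 39.8 and 35.9 CPM after starvation (-0.75 ± 0.07).

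Interferon-stimulated genes were lower in 10 of 19 cases and higher in 2 (median -0.36). Stat2, a subunit of their activator, was at 30.2 and 30.5 CPM in the controls and 9.45 and 10.5 CPM after starvation (-1.61 ± 0.09). Ifit1 was at 10.1 and 10.0 CPM in the controls and 3.49 and 3.44 CPM after starvation (-1.54 ± 0.17). Targets of the oxidative stress factor NRF2 were divided, 6 higher and 8 lower of 19. Hmox1, heme oxygenase 1, was at 88.8 and 84.7 CPM in the controls and 334 and 343 CPM after starvation (1.97 ± 0.06). Osgin1 was at 7.26 and 6.85 CPM in the controls and 3.06 and 3.07 CPM after starvation (-1.2 ± 0.21). Genes of the mitochondrial genome were lower in 9 of 13 cases, with a median of -0.27; mt-Co1, a subunit of cytochrome oxidase, was at 10057 and 11183 CPM in the controls and 8702 and 8960.1 CPM after starvation (-0.27 ± 0.06). Genes named Zfp with a number, mostly C2H2 zinc finger proteins, formed the largest list, in which 175 of 346 were lower and 65 higher (median -0.37), against 32.1% and 27.9% of all genes.

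By the rule of size, the 12 highest genes were Fosb, Serpinb2, Soat2, Trib3, Areg, Atf3, Gadd45a, Ptgs2, Tcim, Slc7a11, Chac1 and Ndrg1, from 6.34 to 4.29 on the log2 scale. The mean log2 CPM used by the rule was not confined to the libraries compared, and the first 3 genes were rare in the controls. Fosb was there at 1.003 and 0.526 CPM, Serpinb2 at 0.349 and 0.175 CPM and Soat2 at 0.109 and 0.0876 CPM. After starvation Soat2 was at 5.76 and 4.08 CPM. The fold changes of these 3 rest on few control reads. Tcim, a small regulator of proliferation, was at 1.96 and 1.75 CPM in the controls and 40.3 and 37.8 CPM after starvation (4.39 ± 0.15). The 12 lowest were Chst12, Zfp41, Sapcd2, Cyp1b1, Gas1, Tmem104, Klhl42, Zfp61, Ranbp6, Ephb3, Krba1 and Dixdc1, from -4.76 to -2.33. Chst12, a sulfotransferase of chondroitin, was at 38.8 and 38.9 CPM in the controls and 1.49 and 1.37 CPM after starvation (-4.76 ± 0.14, edgeR adjusted p = 6.33e-22). Ephb3, an ephrin receptor, was at 19.9 and 18.2 CPM in the controls and 3.99 and 3.35 CPM after starvation (-2.38 ± 0.13). Klhl42, a substrate adaptor of a ubiquitin ligase, was at 24.8 and 26.8 CPM in the controls and 3.18 and 4.46 CPM after starvation (-2.75 ± 0.12). Starved and control libraries were apart for each of these genes, as the rule required.

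Set directly against glucose starvation at 3 h, with the same handling, 9625 genes (54.4%) differed, 4720 (26.7%) higher and 4905 (27.7%) lower after amino acid starvation. By at least 2-fold, 7.92% were higher and 5.99% lower, 13.9% in all, and the libraries did not overlap for 74.5%. Against the control, glucose starvation itself changed 43.3% of the genes, 20.3% higher and 23% lower. All 33 ATF4 targets were higher than after glucose starvation, with a median log2 difference of 0.72, and 12 of them by at least 2-fold. Glucose starvation itself raised 32 of the 33 over the control (median 1.54), 25 of them by at least 2-fold. Among the larger differences, Atf5 was at 39.4 and 43.5 CPM after glucose starvation (difference 2.34 ± 0.06), Ppp1r15a at 109 and 109 CPM (2.16 ± 0.06) and Nupr1 at 54.6 and 57.8 CPM (1.93 ± 0.06). FOS and JUN genes were higher in 11 of 12 cases and mitochondrial tRNA synthetases lower in 13 of 17. Feedback of the MAP kinases was less uniform: 10 of 17 genes were higher and 4 lower, the latter including Dusp5 at 219 and 234 CPM and Dusp4 at 66.1 and 65.8 CPM after glucose starvation. Mitosis genes were higher than after glucose starvation in 14 of 20 cases. By the rule of size, Egr1, Txnip, Fos, Col11a2, Cln3 and Fosb lay highest. Col11a2, a cartilage collagen chain, was at 2.38 and 2.82 CPM in the controls and 26.0 and 24.8 CPM after starvation and at 2.05 and 1.59 CPM after glucose starvation (3.81 ± 0.13). The lowest 6 held Chst12, Neat1, Ampd3 and 3 genes known in the table by an identifier alone, which the rule did not leave out; Ampd3, an AMP deaminase, was at 3.69 and 4.32 CPM against 25.8 and 24.6 CPM (-2.65 ± 0.13).

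At 6 h of amino acid starvation, 8869 genes (50.1%) differed from 3 h, 4375 higher (24.7%) and 4494 lower (25.4%), and the libraries did not overlap for 75.6%. Most ATF4 targets and most growth factor genes went apart. Of the 33 ATF4 targets, 20 were higher still at 6 h and 10 lower (median 0.22), with Atf5 at 493 and 481 CPM (difference 1.21 ± 0.06) and Gpt2 at 377 and 375 CPM (0.56 ± 0.05). By at least 2-fold, however, 2 were higher and 3 lower. Atf3 was among the lower, at 85.1 and 83.4 CPM (-1.52 ± 0.06). Of the EGR, NR4A and KLF genes 18 of 20 were lower at 6 h, and of the FOS and JUN genes 9 of 12. Egr3 was at 3.73 and 3.50 CPM (-3.06 ± 0.15) and Junb at 162 and 181 CPM (-2.04 ± 0.07). The lowest by the rule of size were Ccn2, Pdgfb, Tcim, Has2, Cxcl1 and Cnn2. Has2, a hyaluronan synthase, was at 15.9 and 14.9 CPM in the control, 131 and 132 CPM at 3 h and 12.9 and 16.4 CPM at 6 h (-3.15 ± 0.09). The highest were Angptl6, Slc25a42, Ranbp6, Zdhhc24, Ppm1e and Arhgef39, of which Ranbp6, an importin, was at 16.2 and 15.3 CPM in the control, 2.63 and 3.35 CPM at 3 h and 15.8 and 14.1 CPM at 6 h (2.32 ± 0.14). Cytosolic synthetases were higher at 6 h in 13 of 20 cases, and mitosis genes in 17 of 20, with Plk1 at 118 and 113 CPM. Under library totals 5490 genes were higher and 3562 lower at 6 h, 60.6% of the calls higher against 49.3% under TMM.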

How the data were processed

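The series holds 14 bulk RNA libraries of mouse embryonic fibroblasts, 2 in each of 7 groups. The authors deposited a table of whole-number read counts per transcript row, and the submitters' processing notes name STAR, bedtools and the build GRCm39; the counting rule and its use of strand are not given in the sources used here. Of 67457 rows, 58 name no gene and hold 0% of the reads. For each of 40800 gene symbols the row with the highest sum over all libraries was used; 13432 symbols (32.9%) had several rows. Genes that passed edgeR's filter on low counts, 17696, were fitted over all 7 groups with TMM factors and edgeR's quasi-likelihood test (edgeR 4.0.16, limma 3.58.1, R 4.3.3), with Benjamini-Hochberg adjustment over all genes tested and a threshold of 0.05. The biological coefficient of variation was 5.78%. CPM, fold changes and counts of calls were computed here. The code was tested on simulated counts. DESeq2 1.42.0, other scalings and filters, a replicate term and single left-out libraries were tried as alternatives. Exon overlaps came from a GRCm38 annotation matched by symbol.

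Genes were named if they belong to a list described by its role, or if they were among the 12 highest and 12 lowest log2 fold changes against the control, or the 6 highest and 6 lowest of the other comparisons, counting only called genes whose mean log2 CPM reached 3, whose groups did not overlap and whose symbol is not provisional (Gm, LOC and similar prefixes with digits, or Rik; genes with an Ensembl identifier alone were kept). The comparison and the gene lists were chosen with earlier results of these data known. The 2 libraries of a group differed by more than sampling noise, with a chi-square per degree of freedom of 13.97 for the control and 4.61 for amino acid starvation at 3 h. Between 71.3% and 75.2% of the counts from 1 to 10 in a library were even, a feature of the deposited counts whose origin is not given in the sources used here, so that low counts may overstate their own precision. Some genes of the lists are counted in the lists' totals but are not reported here by name.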

Additional observations from a re-analysis of the deposited data

Results flagged for a closer look

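Of 892 tested genes of the lists, 20 were called against the control in opposite directions after the starvations at 3 h and differed at least 2-fold between them in the direct test (edgeR's quasi-likelihood test). How many of all genes tested met the same rule was not counted, so that this count cannot be read against a background. Both contrasts with the control share its libraries. The difference taken in the direct test leaves them out, but its spread was estimated over all 7 groups, the control among them. The values below are log2 differences of amino acid starvation over glucose starvation, each over 2 libraries a group. Lower after amino acid starvation were 11 genes: the nuclear RNA Neat1 (-3.06), the coactivator gene Ppargc1b (-2.32), the chemokine gene Cxcl12 (-1.66), the calponin gene Cnn2 (-1.25) and Id1 (-1.17), an inhibitor of helix-loop-helix factors. Of the same 11, Sdf2l1 (-1.45), Pdia4 (-1.24), Manf (-1.05) and Creld2 (-1.05) serve protein folding in the endoplasmic reticulum, and Insig1 (-1.12) and Sqle (-1.06) serve sterol synthesis or its control. Higher after amino acid starvation were 9 genes: the early genes Egr1 (5.43) and Fos (3.86), the glucose uptake inhibitor gene Txnip (5.32), the cyclin gene Ccng2 (2.71), the demethylase gene Kdm5b (1.66), the autophagy kinase gene Ulk1 (1.28), the replication gene Cdc6 (1.25), and the bZIP genes Atf7 (1.17) and Tef (1.0). The opposite direction of Id1 is the least certain, since its call against the control was lost under RLE scaling (log2 fold change -0.14), DESeq2 and several other alternatives, and that of Insig1 was lost in a fit of only the groups compared (-0.16) and without either of 2 single libraries.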

How the results depend on the processing

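Under edgeR's other scalings, other filters, DESeq2, summed transcript rows and fits of only the groups compared, the counts of called genes stayed within 1.5 times those reported. Leaving out genes that share exon positions with another reduced the genes tested to 10435 and the called ones to 6238 against the control, 5735 against glucose starvation and 5289 between 6 h and 3 h. With each library left out in turn, the calls ranged from 9375 to 9725, from 8141 to 8912 and from 7362 to 7440; a lone library was assumed to vary like the other groups. With the replicate number as a block, 10774, 9779 and 9062 genes were called, and the numbers did not pair the libraries (correlation of deviations between amino acid starvation at 3 h and the control -0.02). Of 214 named genes called against the control, 202 kept their call under every alternative that tested them, and none reversed. Against glucose starvation 180 of 200 did, and between 6 h and 3 h 165 of 194, again with none reversed. Against the control, lost under at least 1 alternative were the calls of Bik, Derl3, Eif2ak4, Gcn1, Hars, Hspa5, Id1, Insig1, Msmo1, Mtr, Slc36a1 and Yars2. Those of Eif2ak4 (0.11), Hspa5 (0.06), Msmo1 (0.10), Slc36a1 (0.04) and Yars2 (0.15) were lost under library totals, at the log2 fold changes given. Conversely, many of the 19 named genes not called against the control were called under at least 1 alternative. They were Bax, Bcl2l1, Col5a1, Col5a2, Dars, Dcn, Il6, Lars2, Mars1, Qars, Srebf2, Vim and Xbp1. That these genes did not pass therefore depends on the processing. With 2 libraries a group, small changes and genes of low counts are the least certain.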
